A study of Mus musculus with 2 samples.

Results

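The genes described here are the mouse factors of translation initiation (Eif1 to Eif6), elongation (Eef1 and Eef2) and termination (Etf1 and Gspt1). They were taken by symbol alone, as protein-coding autosomal genes whose name begins in one of these ways. The rule uses no measured value, though it was set with earlier results of these data known. There were 66 such genes of 43346 in the tables. The annotation holds 71 protein-coding symbols of this form, of which 4 lie on the sex chromosomes (Eif2s3x, Eif2s3y, Eif1ax and Gspt2) and 1, Eef1akmt4, matched no row and was not analysed here. The symbol rule also takes proteins that act on the factors, such as kinases, methyltransferases and inhibitors, and they are described with the factor they act on.

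The data are 2 total RNA-seq libraries of mouse midbrain (strain B6NCrl, embryonic day 11.5), biological replicates of 1 group for which no treatment or genetic change is given. For replicate 1 the tissue of 109 embryos was pooled and for replicate 2 that of 88, with both sexes in each, so the spread between libraries is between pools and not between embryos. The input was 10 ng of RNA above 200 nt per library, and synthetic ERCC transcripts were spiked in. Levels are deposited TPM, a length-corrected relative abundance, and mean ± SD is over the 2 libraries (n = 2) unless stated. Since there is no contrast of conditions, levels were set side by side for different genes of the same library, and each gene was then set against itself in the other library.

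Translation of most messenger RNAs starts when the eIF4F complex (cap-binding eIF4E, scaffold eIF4G and helicase eIF4A) recruits a small ribosomal subunit that carries eIF1, eIF1A, eIF3, eIF5 and the initiator tRNA bound to eIF2. The GTPase eEF1A then delivers each further aminoacyl-tRNA, eEF2 moves the ribosome along, eIF5A helps it over difficult stretches, and eRF1 with eRF3 (Etf1 and Gspt1) releases the finished protein. Growth and stress pathways act mainly on the eIF4E inhibitors, on eIF2 through its kinases and on eEF2 through its kinase.

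The tables held 41760197 and 49256468 expected counts in replicates 1 and 2, of which 38884247 and 45975100 belonged to genes, and spike-ins took 15.2% and 14.8% of TPM. The labelled tissue was checked against markers. All 11 listed midbrain and isthmus genes reached 1 TPM in both libraries, as did all 8 progenitor and all 10 neuron genes. Of the hindbrain and spinal cord Hox genes 0 of 6 did. The share over all protein-coding autosomal genes was 59.2%. Midbrain and isthmus genes ranged from En2 (2.005 TPM in the mean) to Otx2 (170.35 TPM). Genes of other cells were also present: all 10 erythroid genes, all 7 mesenchyme genes and all 7 microglia genes reached 1 TPM. In such bulk tissue, fewer cells of a type and less RNA per cell cannot be told apart, and which cells the factor transcripts came from was not tested.

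Several of the pairs compared below are close relatives, and their coding sequences show how far reads can tell them apart. The sequences are from the GENCODE M21 transcripts, taken from the protein-coding transcript with the highest mean isoform percent. The first 90 coding bases of Eef1a1 (mm10 chromosome 9, 78478449 to 78489151, minus strand) and Eef1a2 (chromosome 2, 181147653 to 181157014, minus strand) are shown because these genes had the highest ratio of any pair compared, leaving aside a lower bound. Capitals mark the bases that differ.
Eef1a1: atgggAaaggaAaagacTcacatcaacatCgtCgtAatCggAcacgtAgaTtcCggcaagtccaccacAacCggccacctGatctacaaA
Eef1a2: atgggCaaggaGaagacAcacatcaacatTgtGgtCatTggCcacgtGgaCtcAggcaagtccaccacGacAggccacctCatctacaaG
The stretch held 15 differing bases in 15 of 30 codons, and all 15 changes were synonymous under the standard genetic code. Over the whole coding sequence 80.1% of aligned bases were identical, and the longest run without a difference was 23 nt.

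The stretch around the modified lysine of eIF5A is shown because eIF5A is the protein known to carry hypusine, a derivative of 1 of its lysines. Capitals mark the codon of that lysine in Eif5a (chromosome 11, 69916714 to 69921958, minus strand) and Eif5a2 (chromosome 3, 28781276 to 28798846, plus strand).
Eif5a: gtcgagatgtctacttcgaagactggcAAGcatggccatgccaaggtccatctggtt
Eif5a2: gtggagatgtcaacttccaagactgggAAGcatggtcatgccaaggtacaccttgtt
These windows shared 49 of 57 bases, the codon included, and the coding sequences were 72.8% identical.

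The DEAD box, the ATP-binding motif that names this helicase family, is shown for the eIF4A genes, whose protein products are alike and whose levels were not. Capitals mark its codons in Eif4a1 (chromosome 11, 69666936 to 69672423, minus strand), Eif4a2 (chromosome 16, 23107444 to 23114136, plus strand) and Eif4a3 (chromosome 11, 119288363 to 119300089, minus strand).
Eif4a1: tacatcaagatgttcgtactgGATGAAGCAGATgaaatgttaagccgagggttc
Eif4a2: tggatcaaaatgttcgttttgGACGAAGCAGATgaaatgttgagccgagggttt
Eif4a3: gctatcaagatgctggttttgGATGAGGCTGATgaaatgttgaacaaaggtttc
Eif4a1 shared 46 of 54 bases of the window with Eif4a2 and 40 with Eif4a3.

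The motif by which the eIF4E inhibitors hold eIF4E is shown for the more abundant inhibitor genes, Eif4ebp1 (chromosome 8, 27260329 to 27276674, plus strand) and Eif4ebp2 (chromosome 10, 61428491 to 61452661, minus strand). Capitals mark its codons, of which 18 of 21 bases were identical.
Eif4ebp1: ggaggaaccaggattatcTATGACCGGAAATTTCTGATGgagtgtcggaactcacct
Eif4ebp2: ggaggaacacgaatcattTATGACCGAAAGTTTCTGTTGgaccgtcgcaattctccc

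The last sequence shown is the start of the coding sequence of Eif4g2 (chromosome 7, 111067750 to 111083030, minus strand), the second most abundant factor gene, with its first codon in capitals.
Eif4g2: GTGgagagtgcgattgcagaagggggtgct
Of the 66 factor genes, 65 had an annotated coding sequence that begins with ATG, and Eif4g2, which begins with GTG, was the exception. Eif4g2 encodes a relative of the scaffold eIF4G that lacks the part that holds eIF4E.

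The factor genes as a set stood high among the genes of the midbrain. Of the 66, 63 reached 1 TPM in both libraries, against 59.2% of 20337 protein-coding autosomal genes. At 10 TPM there were 57 factor genes (38.3% of all), at 100 TPM 29 (6.84% of all), and at 1000 TPM 4 (0.290% of all). The median factor gene had 84.0 TPM against 3.835 TPM for all protein-coding autosomal genes, and over the genes at 1 TPM or more the medians were 101.2 and 18.54 TPM. Together the factor genes held 1.93% of gene counts in replicate 1 (95% Wilson interval 1.92 to 1.93) and 1.89% in replicate 2 (1.89 to 1.90), intervals that cover counting error only. The 3 genes below 1 TPM were Eef1a2, Eef1akmt3 and Eif4e1b. In the plot of all factor genes by role, the 2 libraries nearly coincide for most genes and the levels within a role spread widely.

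**Figure D1:**
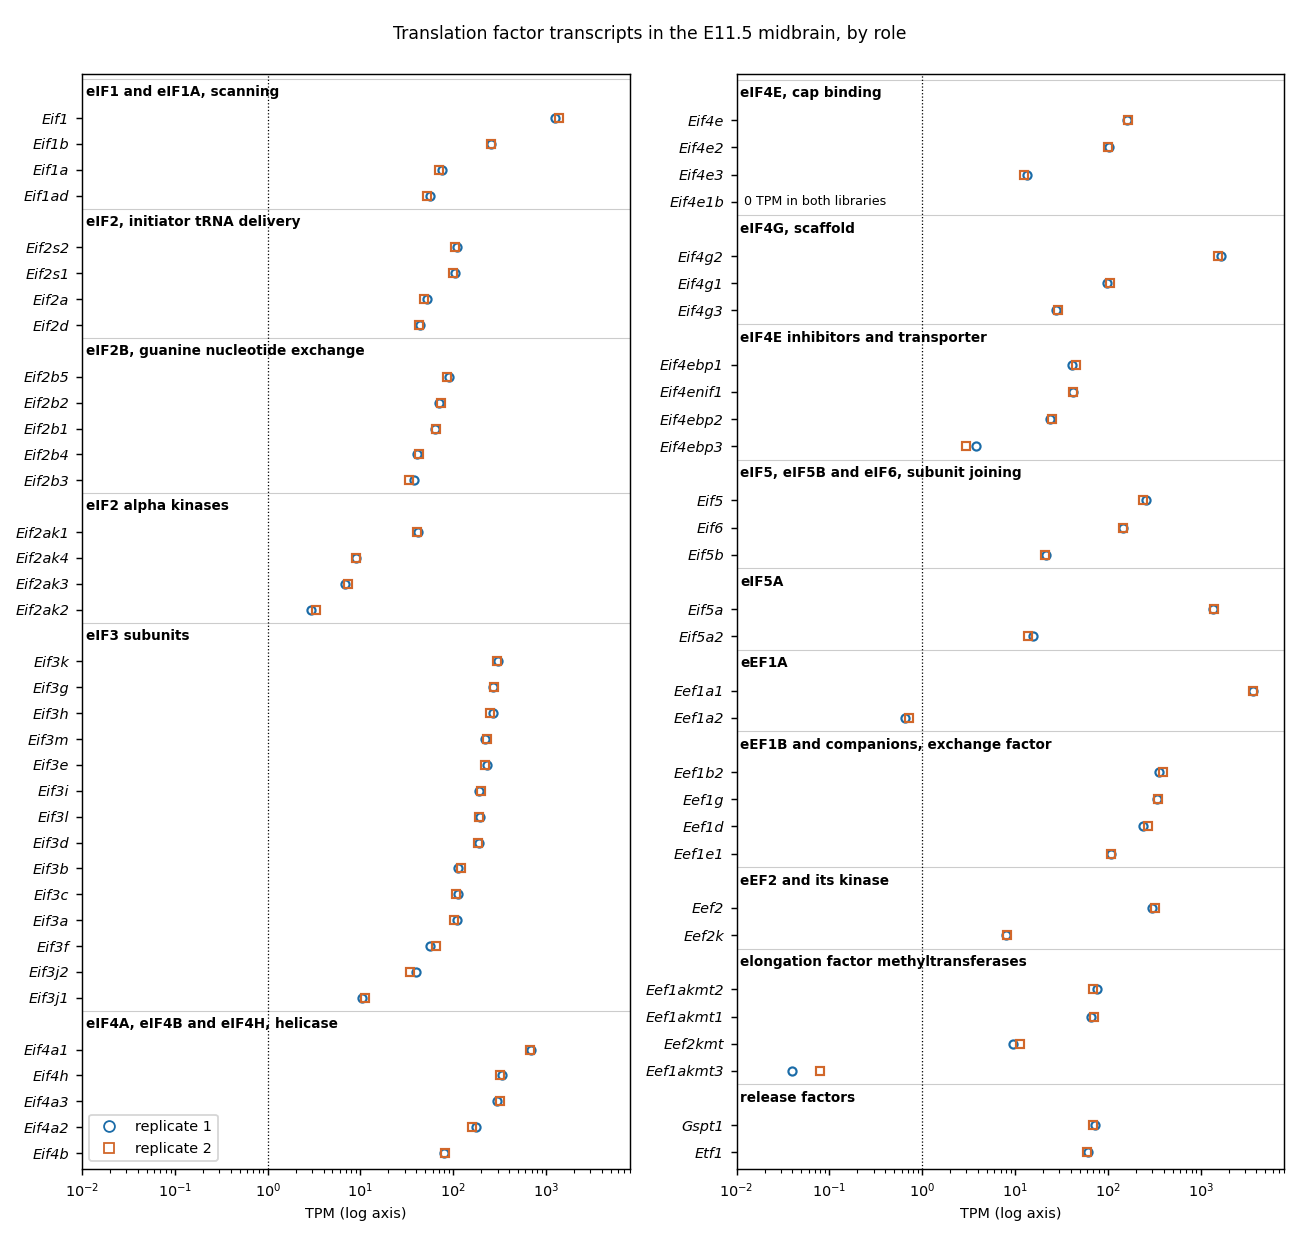
TPM of each of the 66 factor genes on a log axis, grouped by role and ordered within a role by mean level, with circles for replicate 1, squares for replicate 2 and a dotted line at 1 TPM. Eef1a1, Eif4g2, Eif5a and Eif1 lie above 1000 TPM in both libraries, and Eef1a2, Eef1akmt3 and Eif4e1b lie below 1 TPM.

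Among elongation factors, Eef1a1 was by far the highest. Eef1a1, the general eEF1A gene, had 3695.87 TPM in replicate 1 and 3681.81 TPM in replicate 2 (3689 ± 9.94 TPM), from 149857 and 172370 counts. It took 23.9% and 23.7% of the summed TPM of the 66 factor genes and ranked 8 by mean TPM among protein-coding autosomal genes. Its counterpart Eef1a2, which adult neurons and muscle use in its place, had 0.66 and 0.72 TPM (0.69 ± 0.0424 TPM) from 35 and 46 counts. The ratio was 4863 in replicate 1 and 4490 in replicate 2 on TPM + 0.1 (mean log2 ratio 12.19), and with 1 TPM added in place of 0.1 the mean log2 ratio was 11.09. Neuron markers were abundant in the same libraries, since the 10 listed genes summed to 1809 and 1780 TPM, led by Tubb3 (619.1 ± 38.1 TPM). Muscle markers were not, with 2 of 8 at 1 TPM and sums of 9.06 and 7.88 TPM. Those 2 were Tnnt1 (6.16 and 5.07 TPM) and Actc1 (1.25 and 1.52 TPM), and Ckm was at 0 in both libraries. The part of either cell type in the level of Eef1a2 was not tested.

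The exchange factor eEF1B, which reloads eEF1A with GTP, stood well below Eef1a1 and near eEF2. Eef1b2 had 352.58 and 390.0 TPM (371 ± 26.5 TPM), Eef1g, its structural partner, had 342.74 and 344.63 TPM (344 ± 1.34 TPM), and Eef1d, the other exchange subunit, had 237.18 and 273.22 TPM (255 ± 25.5 TPM). The deposited intervals of Eef1g and Eef1b2 overlapped in replicate 1 and not in replicate 2, so that pair was not called different. Over whole genes Eef1b2 exceeded Eef1d 1.49-fold and 1.43-fold, with intervals apart in both libraries. Transcripts annotated as protein-coding held 61.1% and 59.2% of the TPM of Eef1b2, and 95.9% and 96.6% of that of Eef1d. On protein-coding transcripts alone Eef1b2 was therefore below Eef1d in both libraries. Eef1e1, a companion of the tRNA synthetase complex that shares the family name, had 108.27 ± 0.240 TPM.

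Eef2, the translocase, had 300.37 and 321.84 TPM (311 ± 15.2 TPM), and Eef1a1 exceeded it 11.9-fold over the mean of the libraries. Eef2k, the kinase that inactivates eEF2, had 8.01 and 8.18 TPM, and Eef2 exceeded it 37.0-fold and 38.9-fold. Among the methyltransferases of elongation factors, Eef1akmt2 (72.7 ± 4.75 TPM) and Eef1akmt1 (68.1 ± 3.34 TPM) were highest, Eef2kmt had 10.4 ± 1.17 TPM, and Eef1akmt3 had 0.04 and 0.08 TPM from 3 and 7 counts. The last of these lies at the edge of what this depth can detect. Eef1akmt3 overlaps an exon of Mettl1 on the opposite strand, and the sources used here do not give whether counting used strand.

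Eif5a was the third most abundant factor gene, with 1358.76 and 1386.88 TPM (1373 ± 19.9 TPM). Its paralog Eif5a2 had 15.79 and 13.88 TPM (14.8 ± 1.35 TPM), and Eif5a exceeded it 85.5-fold in replicate 1 and 99.2-fold in replicate 2. For both genes the gap between the libraries was small beside the gap between the paralogs. The enzymes that make hypusine on eIF5A and diphthamide on eEF2 were all detected, 9 of 9 at 1 TPM. Dph3 (75.2 ± 1.08 TPM), an electron donor in diphthamide synthesis, was highest, followed by Dhps (50.8 ± 1.07 TPM), which begins hypusine synthesis, and Dnajc24 (40.1 ± 3.97 TPM), and the lowest was Dph1 (12.3 ± 1.16 TPM).

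**Figure D2:**
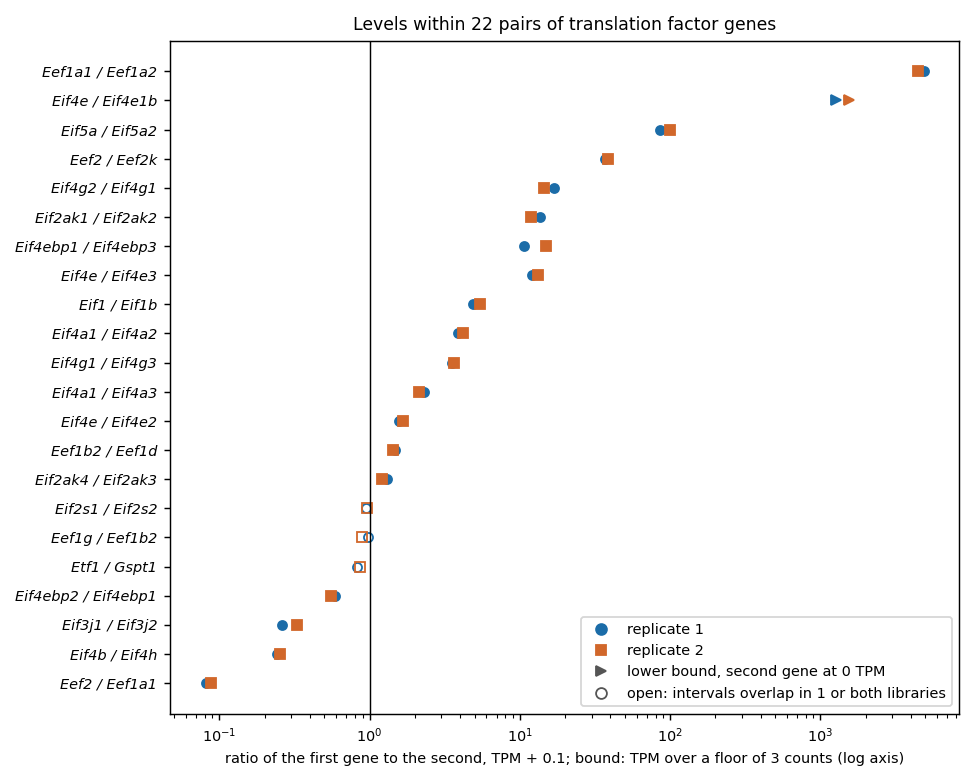
Ratio of the first gene to the second (log axis), on TPM + 0.1 except for Eif4e over Eif4e1b, where triangles give a lower bound against a floor of 3 counts, in 22 pairs, 16 of paralogs and family members and 6 of partner proteins, with blue for replicate 1 and orange for replicate 2; open symbols mark pairs whose deposited intervals overlap in 1 or both libraries. Eef1a1 over Eef1a2 has the highest plotted ratio, at 4863 and 4490, and Eif2s1 with Eif2s2 lies closest to 1 in the mean of the libraries.

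Most of the pairs compared were unequal in level, some of them only slightly. Of the 22 pairs fixed for comparison, 19 had deposited intervals apart in the same direction in both libraries, and these included all 16 pairs of paralogs and family members and 3 of 6 partner pairs. The pairs that were not separated were Eif2s1 with Eif2s2, Etf1 with Gspt1 and Eef1g with Eef1b2. No p is given for a pair, since a two-sided exact sign test over 2 libraries cannot go below 0.5. A pair at least 2-fold apart in both libraries was found in 15 of 22 cases. The intervals were narrow, with a median ratio of upper to lower bound of 1.07 in replicate 1 and 1.06 in replicate 2. That median is over factor genes at 1 TPM or more. Small differences can therefore separate a pair, and how often pairs of other genes separate was not counted.

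In the scanning group, Eif1, which guards the choice of the start codon, had 1251.49 and 1380.49 TPM (1316 ± 91.2 TPM). Its paralog Eif1b had 255.64 and 253.05 TPM (254 ± 1.83 TPM), so that Eif1 exceeded it 4.89-fold and 5.45-fold over whole genes. Transcripts annotated as protein-coding held 43.3% and 40.5% of the TPM of Eif1, and 100% of that of Eif1b. The leading protein-coding transcript of Eif1, Eif1-201, had 530.4 and 542.98 TPM, so on protein-coding transcripts the excess was smaller. Their coding sequences were 81.1% identical, with a longest identical run of 25 nt, and Eif1 had fractional counts whereas Eif1b had whole ones. Eif1a, an autosomal gene for eIF1A, had 73.1 ± 4.19 TPM, and its X-linked counterpart Eif1ax, outside the set, had 119 ± 4.84 TPM. Eif1ad, an eIF1A-like protein, was lowest in the group at 54.3 ± 2.21 TPM.

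Of the subunit genes of eIF2, which carries the initiator tRNA, Eif2s1, Eif2s2 and Eif2s3x were nearly level with one another. Eif2s2 had 109.96 and 103.46 TPM (107 ± 4.60 TPM), and Eif2s1, the subunit that the stress kinases phosphorylate, had 103.66 and 99.77 TPM (102 ± 2.75 TPM). The X-linked gene of the remaining subunit, Eif2s3x, had 106.43 and 96.64 TPM (101.5 ± 6.92 TPM). The level of Eif2s3y, its Y-linked counterpart, was not analysed here. The intervals of Eif2s1 and Eif2s2 were 99.4 to 104 and 105 to 110 TPM in replicate 1, with no overlap, and 96.1 to 99.8 and 99.4 to 104 TPM in replicate 2, with overlap. Eif2a (50.4 ± 2.90 TPM) and Eif2d (43.2 ± 0.297 TPM), which bring tRNA to the ribosome outside the eIF2 complex, were lower.

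All 5 subunits of eIF2B, which recharges eIF2 with GTP, lay within 2-fold of their median. Eif2b5, the catalytic subunit, was highest with 89.91 and 85.22 TPM (87.6 ± 3.32 TPM), followed by Eif2b2 (72.0 ± 1.62 TPM), Eif2b1 (64.3 ± 1.54 TPM) and Eif2b4 (41.9 ± 1.07 TPM). Eif2b3 was lowest with 37.63 and 33.1 TPM (35.4 ± 3.20 TPM). The highest exceeded the lowest 2.48-fold.

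Among the kinases of eIF2, Eif2ak1 made up most of the TPM, and the other kinase genes were among the lowest of the factor genes. Eif2ak1, the haem-regulated kinase known best from red blood cell precursors, had 41.49 and 40.49 TPM (41.0 ± 0.707 TPM), which was 69.0% and 67.2% of the TPM of the 4 kinase genes. Eif2ak4, which senses uncharged tRNA, had 8.88 and 9.02 TPM (8.95 ± 0.0990 TPM), and Eif2ak3, which senses stress of the endoplasmic reticulum, had 6.79 and 7.41 TPM (7.10 ± 0.438 TPM). Eif2ak2, which senses double-stranded RNA, was lowest with 2.95 and 3.34 TPM (3.145 ± 0.276 TPM). Eif2ak1 exceeded Eif2ak2 13.6-fold and 11.8-fold, and Eif2ak4 exceeded Eif2ak3 1.30-fold and 1.21-fold. Erythroid RNA was abundant in these libraries, with all 10 listed genes at 1 TPM and sums of 19627 and 19672 TPM, led by Hbb-y (8326.6 and 8295.49 TPM), and its part in the level of Eif2ak1 was not tested. Eif2ak1 also overlaps exons of Ankrd61 and Aimp2 on the opposite strand.

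Genes that act on eIF2 phosphorylation or below it ranged widely in level, with a median of 14.18 TPM. Of 10 matched genes of the integrated stress response, 8 reached 1 TPM, led by its transcription factor Atf4 (106.5 ± 3.58 TPM), Ppp1r15b (39.4 ± 1.68 TPM), which directs dephosphorylation of eIF2, and Impact (35.9 ± 2.39 TPM), an inhibitor of the uncharged tRNA sensor. Chac1, a target of the response, was lowest with 0.24 and 0.28 TPM. These are levels of RNA, and they hold no measure of phosphorylation.

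**Figure D3:**
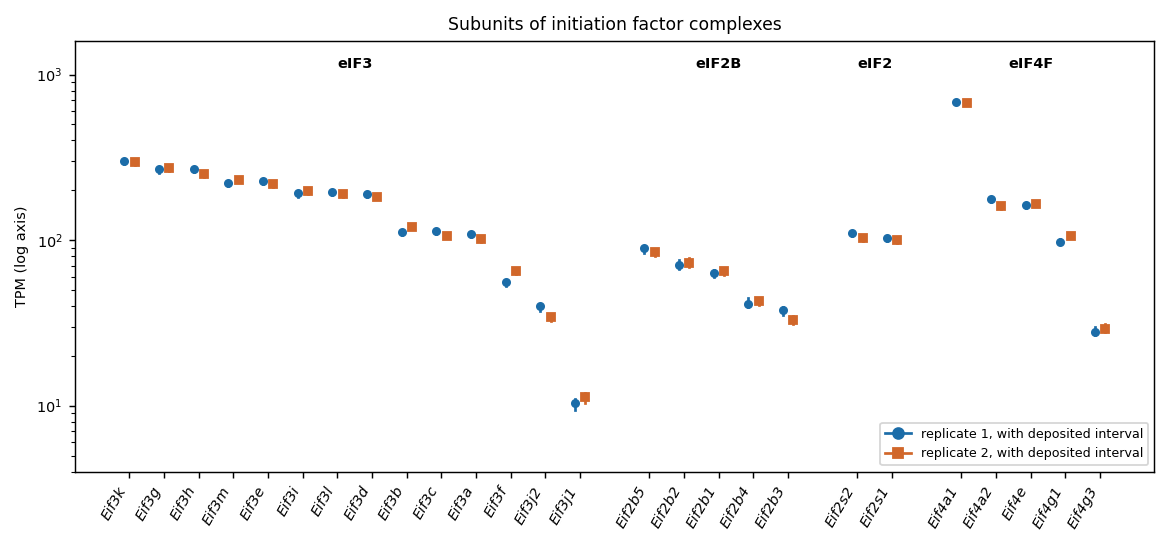
TPM (log axis) of the subunit genes of eIF3, eIF2B, eIF2 and eIF4F, with points for the TPM of each library and vertical lines for the deposited interval, which lies around another estimate and need not hold the point. Most eIF3 subunits lie between 100 and 310 TPM, and Eif3f, Eif3j2 and Eif3j1 lie below them.

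Most subunits of eIF3, the large scaffold that holds the small ribosomal subunit ready, had similar levels. The highest were Eif3k with 302.17 and 298.08 TPM (300.1 ± 2.89 TPM) and Eif3g with 267.38 and 273.0 TPM (270.2 ± 3.97 TPM). Below them came Eif3h (261 ± 13.4 TPM), Eif3m (227 ± 6.61 TPM), Eif3e (223 ± 8.16 TPM), Eif3i (195 ± 5.06 TPM), Eif3l (192 ± 3.25 TPM), Eif3d (187 ± 5.15 TPM), Eif3b (116 ± 6.21 TPM), Eif3c (109.6 ± 4.53 TPM) and Eif3a (105 ± 5.54 TPM). The genes of the largest subunit proteins, Eif3a, Eif3b and Eif3c, thus stood next to each other in the order and below 8 of the others. Eif3f had 55.63 and 65.48 TPM (60.6 ± 6.97 TPM). Of the 13 subunits, 11 lay within 2-fold of the median of 192 TPM, and the exceptions were Eif3f and Eif3j1.

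The lowest eIF3 value depended on how a duplicated gene is treated. Eif3j1 had 10.31 and 11.22 TPM (10.8 ± 0.643 TPM), and the highest subunit exceeded it 27.9-fold. Eif3j2, the second gene for the loosely bound j subunit, had 39.9 and 34.55 TPM (37.2 ± 3.78 TPM) and exceeded Eif3j1 3.43-fold. Their coding sequences were 100% identical over 783 aligned bases, so that reads from the coding part cannot tell them apart, and both genes had fractional counts. Summed as 1 subunit they had 50.2 and 45.8 TPM, and the highest subunit then exceeded the lowest 6.25-fold, an alternative chosen after seeing the data. Without the j subunit the ratio was 4.96, with Eif3f lowest.

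In eIF4F the helicase gene was in excess over the scaffold and the cap-binding gene. Eif4a1 had 686.07 and 674.17 TPM (680.1 ± 8.41 TPM), which was 4.24 and 4.07 times Eif4e and 7.001 and 6.363 times Eif4g1. Eif4a2 had 176.14 and 160.86 TPM (168.5 ± 10.8 TPM), and Eif4a1 exceeded it 3.89-fold and 4.19-fold. Eif4a3, the relative that belongs to the exon junction complex, had 306 ± 13.3 TPM. Of the helicase cofactors, Eif4h (326 ± 8.54 TPM) exceeded Eif4b (80.5 ± 0.827 TPM) 4.05-fold, with intervals apart in both libraries. Eif4a1 and Eif4a2 had fractional counts, and Eif4a2 overlaps an exon of Rfc4 on the opposite strand.

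The cap-binding genes formed a graded series. Eif4e had 161.99 and 165.81 TPM (164 ± 2.70 TPM), Eif4e2, a repressor-type relative, had 102.48 and 99.92 TPM (101.2 ± 1.81 TPM), and Eif4e3 had 13.34 and 12.45 TPM (12.9 ± 0.629 TPM). Eif4e exceeded Eif4e2 1.58-fold and 1.66-fold and Eif4e3 12.1-fold and 13.2-fold. Eif4e1b, a form known from oocytes, was listed at 0 TPM and 0 counts in both libraries. Against a floor of 3 counts per library (0.128 and 0.107 TPM for this gene), Eif4e was at least 1263-fold and 1547-fold higher. The deposited intervals of Eif4e1b ran from 0.212 to 0.890 TPM and from 0.175 to 0.743 TPM, above the listed value, so the value of 0 rests on the counts alone, and the mean log2 ratio of 10.45 became 8.09 on posterior mean TPM + 0.1. Of 6 germ cell and oocyte markers, 1 reached 1 TPM, and they summed to 2.90 and 3.47 TPM. The highest was Gdf9 (1.79 and 2.78 TPM), and Oosp1 was at 0.

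The scaffold genes differed widely in level. Eif4g2 had 1658.35 and 1526.33 TPM (1592 ± 93.4 TPM), Eif4g1, the canonical scaffold, had 97.99 and 105.95 TPM (102 ± 5.63 TPM), and Eif4g3 had 27.68 and 29.09 TPM (28.4 ± 0.997 TPM). Eif4g2 exceeded Eif4g1 16.9-fold and 14.4-fold, and Eif4g1 exceeded Eif4g3 3.53-fold and 3.63-fold. In counts Eif4g2 stood above Eef1a1 in both libraries, with 158760 against 149857 in replicate 1 and 173355 against 172370 in replicate 2. The order differs from that of TPM, since TPM divides by the length of the transcript.

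The inhibitors of eIF4E, which TOR kinase releases from it when nutrients are ample, were lower than their target. Eif4ebp1 had 41.0 and 45.39 TPM (43.2 ± 3.10 TPM), Eif4ebp2, the form known as the main one of the adult brain, had 23.91 and 25.06 TPM (24.5 ± 0.813 TPM), and Eif4ebp3 had 3.77 and 2.93 TPM (3.35 ± 0.594 TPM) from 65 and 61 counts. Eif4ebp1 exceeded Eif4ebp2 1.76-fold over the mean of the libraries, with intervals apart in both. Eif4e was 2.36 and 2.26 times the sum of the 3 inhibitor genes. Eif4enif1, which carries eIF4E into the nucleus, had 41.9 ± 0.339 TPM. All 12 listed genes of mTORC1 and its kinases reached 1 TPM, with the GTPase Rheb (162 ± 7.76 TPM), the S6 kinase Rps6kb1 (44.0 ± 4.04 TPM) and the eIF4E kinase Mknk2 (33.6 ± 4.55 TPM) highest and the inhibitor Ddit4 (3.145 ± 0.290 TPM) lowest.

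For the joining of the ribosomal subunits, Eif5, which triggers GTP hydrolysis by eIF2, had 260.49 and 241.2 TPM (251 ± 13.6 TPM). Eif6, which keeps large subunits apart until they are mature, had 144.9 and 147.59 TPM (146.2 ± 1.90 TPM), and the joining GTPase Eif5b was lowest with 21.46 ± 0.509 TPM. The release factors were not separated from each other. Gspt1 had 73.63 and 68.53 TPM (71.1 ± 3.61 TPM) and Etf1 had 60.89 and 59.46 TPM (60.2 ± 1.01 TPM), with overlapping intervals in both libraries. The interval of Etf1 was wide, 58.5 to 80.9 TPM in replicate 1 and 57.5 to 79.8 TPM in replicate 2, and the overlap rests on it. Gspt2, the X-linked copy of Gspt1 outside the set, had 8.945 ± 0.318 TPM.

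Other genes of translation were detected almost completely. All 8 genes of poly(A)-binding proteins and their partners reached 1 TPM, with Paip2 (372 ± 21.0 TPM), a repressor, above Pabpc1 (241 ± 8.15 TPM), the main poly(A)-binding protein, and Paip1 (124 ± 8.47 TPM), and Larp1 (10.7 ± 0.0990 TPM) lowest. All 10 genes of ribosome recycling and rescue reached it, with Denr (131.5 ± 1.03 TPM), Abce1 (112 ± 10.3 TPM), which splits ribosomes after termination, and Hbs1l (102 ± 4.02 TPM) highest and Pelo (6.49 ± 0.325 TPM) lowest. All 7 selenocysteine genes did, from Sephs1 (104 ± 2.26 TPM), Sephs2 (55.9 ± 2.84 TPM) and Pstk (48.7 ± 1.19 TPM) down to Sepsecs (6.685 ± 0.601 TPM). All 10 mitochondrial factors did, from Tufm (104 ± 7.01 TPM), the mitochondrial counterpart of eEF1A, Tsfm (63.7 ± 2.43 TPM) and Gfm1 (38.1 ± 0.856 TPM) down to Mtrf1 (7.67 ± 0.156 TPM).

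The libraries were then compared for each factor gene by a two-sided exact binomial test on rounded counts, with Benjamini-Hochberg adjustment over all 17148 genes tested. This test compares 2 libraries, not conditions, and it takes sampling noise as the only error. Of 64 factor genes tested, 0 passed an adjusted p under 0.05 with at least a 2-fold difference, against 2.94% of all genes tested. An unadjusted p under 0.05 was found for 39. The share of all genes at that threshold was not computed, so the count of 39 marks no trait of the factor genes. Without the fold minimum 33 passed, 16 higher and 17 lower in replicate 2, against 35.5% of all genes, 18.3% higher and 17.2% lower. Scaling by spike-ins in place of TMM factors gave 24 higher and 8 lower, against 28.4% of all genes higher and 10.2% lower, and turned the sign of 14 of the 64 small differences. Allowing a coefficient of variation of 0.1 between libraries in edgeR's exact test left 0 factor genes past the adjusted p, with or without the fold minimum. Of all 17148 genes, 155 passed with the fold minimum and 165 without it, so 0 of 64 is close to the share over all genes.

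**Figure D4:**
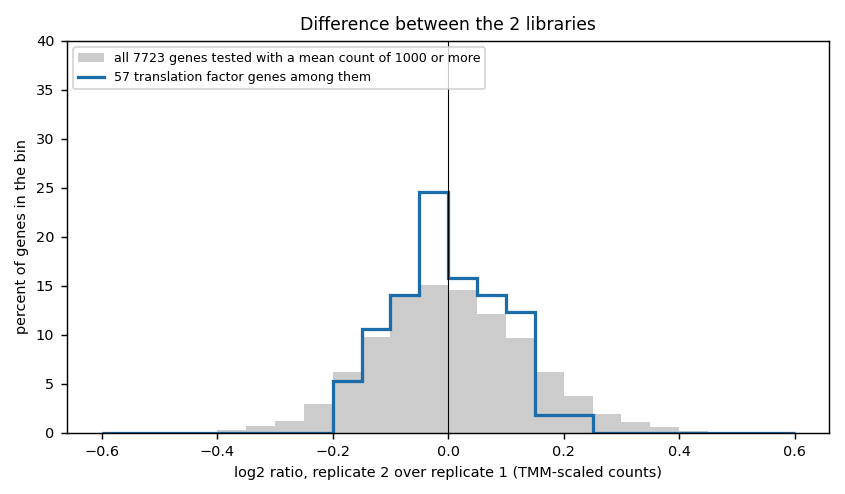
Distribution of the log2 ratio of replicate 2 over replicate 1 in bins, as percent of genes, for the 7723 genes tested with a mean count of 1000 or more (grey) and the 57 factor genes among them (blue line); 4 of the grey genes lie outside the plotted range. The factor genes lie between -0.2 and 0.25, inside the range of the grey genes.

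The differences were small. The median absolute log2 ratio was 0.08 for the 64 factor genes and 0.14 for all genes tested, and 62 of the 64 lay within 1.2-fold, against 72.9% of all. Factor genes are deeply covered, and among genes with a mean count of 1000 or more the medians were 0.07 for 57 factor genes and 0.09 for 7723 genes. There 32 of the 57 passed the adjusted p without a fold minimum, against 50.3% of the 7723. The plot of library ratios shows the same overlap.

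The largest ratios were those of Eif4ebp3 (log2 -0.33, adjusted p = 0.347, exact binomial test) and Eef2kmt (log2 0.28, adjusted p = 0.0127, exact binomial test), whose counts in replicates 1 and 2 were 65 and 61 for Eif4ebp3 and 372 and 538 for Eef2kmt. Eif3f was higher in replicate 2 by a log2 ratio of 0.21 (adjusted p = 1.2e-09, exact binomial test), and Eif3j2 fell by 0.20 on the log2 scale (adjusted p = 1.4e-05, exact binomial test). Signs of these genes were the same under spike-in scaling. In the other translation lists 0 genes were called at 2-fold. Without a fold minimum, 18.3% of all genes tested passed the adjusted p higher in replicate 2 and 17.2% lower. Among genes with a mean count of 1000 or more, 50.3% passed in either direction. Of 12 mTORC1 genes 8 passed higher and 3 lower (8 and 1 with spike-in scaling). Of the 10 recycling and rescue genes 1 passed higher and 5 lower (1 and 1 with spike-in scaling). Higher and lower were 2 and 3 of 8 poly(A)-binding genes, 1 and 2 of 10 stress response genes, 2 and 2 of 9 hypusine and diphthamide genes, 0 and 1 of 7 selenocysteine genes and 2 and 1 of 10 mitochondrial factors. With spike-in scaling these became 3 and 3, 1 and 0, 3 and 1, 1 and 0, and 3 and 0, where all genes moved to 28.4% higher and 10.2% lower.

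Over the cell type lists, 7 of 10 neuron genes passed the adjusted p lower and 1 higher in replicate 2, without a fold minimum. Of the progenitor genes 3 of 8 passed higher. The shares over all genes tested were 18.3% higher and 17.2% lower, and 50.3% in either direction at a mean count of 1000 or more. Of the midbrain and isthmus genes 5 of 11 passed higher and 1 lower, of the erythroid genes 4 of 10 higher, of the mesenchyme genes 1 of 7 higher and 3 lower, of the microglia genes 1 of 7 lower, of the germ cell genes 1 of 2 higher and of the muscle genes 0 of 4. With spike-in scaling, under which 28.4% of all genes were higher and 10.2% lower, these were 3 lower and 1 higher of the neuron genes and 6 higher of the progenitor genes. There the midbrain genes gave 8 higher, the erythroid genes 6 higher, the mesenchyme genes 2 higher and 2 lower, the microglia genes 1 higher and 1 lower, the germ cell genes 1 higher and the muscle genes 0. The part of cell composition in the factor genes' differences was not tested.

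The deposited transcript tables gave the form in which factor genes were read. Of the 63 genes at 1 TPM, 23 had 1 listed transcript and 40 had several. The transcript with the largest isoform percent was the same in both libraries for 38 of the 40, against 91.7% of 8808 genes treated alike, and the exceptions were Eif1 and Eif2a. The median share of TPM on transcripts annotated as protein-coding was 95.7% for the 40 and 93.7% for all 8808. Transcript types are those of the later annotation used here, and short transcripts gain TPM from few reads.

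**Figure D5:**
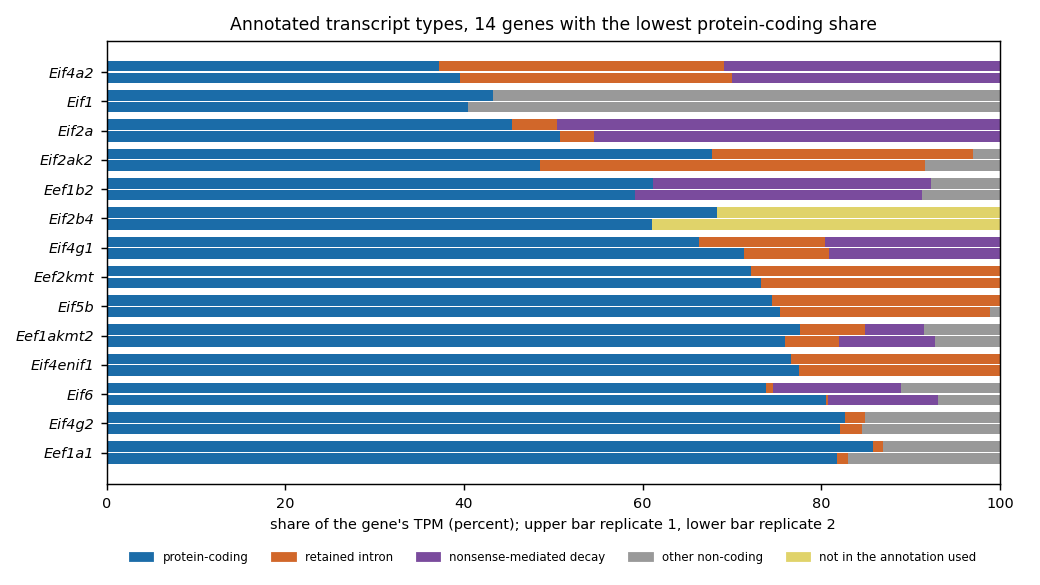
Share of each gene's TPM (percent) by annotated transcript type, with the upper bar for replicate 1 and the lower for replicate 2, for the 14 factor genes with the lowest protein-coding share. Eif4a2, Eif1 and Eif2a have less than 50% on protein-coding transcripts in the mean of the libraries.

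Below 50% protein-coding were 3 of the 40 (7.5%), against 9.70% of all. In Eif4a2, 37.2% and 39.5% of TPM was protein-coding, 31.9% and 30.5% was on retained-intron transcripts and 30.90% and 29.99% on transcripts annotated for nonsense-mediated decay. Its leading transcript, Eif4a2-202, held 29.75 ± 0.948% (n = 2). Eif4a2 also hosts 5 small nucleolar RNA genes in its span, and Eif4a1, its more abundant relative, with 3 such genes, had 95.3% and 95.4% protein-coding. The ratio of Eif4a1 to Eif4a2 was 4.04 for whole genes, and 9.95 and 10.1 in the 2 libraries when only protein-coding transcripts were taken.

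In Eif2a, Eif2a-201 (protein-coding) held 45.4% and 50.1% and Eif2a-207 (nonsense-mediated decay) 49.6% and 45.0%, so the order turned between libraries. In Eif1, Eif1-201 (protein-coding, 1322 nt) held 42.4% and 39.3% and Eif1-202 (a processed transcript of 383 nt) 41.6% and 42.5%. By expected counts, the leading transcript agreed between libraries in 39 of the 40 genes. Eef1b2 had 31.2% and 32.1% on decay-annotated transcripts and Eif4g1 had 19.6% and 19.1%. In Eif4g2 the transcripts Eif4g2-213 and Eif4g2-206, both protein-coding, held 41.5 ± 0.686% and 40.2 ± 0.361%. For Eif2b4 the leading transcript was not in the annotation used.

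Further features that the naming rule did not use were found in a part of the factor genes. Of the 66, 9 hold a small nucleolar RNA gene on the same strand within their span (13.6%), against 1.28% of all protein-coding autosomal genes and 1.87% of those at 1 TPM. These are Eef1b2, Eef2, Eif2ak3, Eif3a, Eif4a1, Eif4a2, Eif4g1, Eif4g2 and Eif5, all but Eif2ak3 above 100 TPM in mean level. The share over genes of similar level was not computed. Small nucleolar RNAs guide chemical changes of ribosomal RNA, and most are shorter than the 200 nt selected here, so they were not analysed here. Fractional counts, a sign of reads shared between genes or copies, were found in 29 of the 66, against 27.1% of the protein-coding autosomal genes at 1 TPM. Exons of another gene overlapped 22 of the 66, and 30 had neither fractional counts nor such an overlap. Overlaps were counted for the factor genes only, so these 2 counts have no share over all genes beside them and mark uncertain levels, not a trait.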

How the data were processed

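The members and gene lists were chosen with earlier results of these data known. Per the labels, a mirVana kit was used on RNA above 200 nt, with ERCC spike-ins and a Smart-seq protocol, in which cDNA is amplified. Intervals and floors do not cover amplification or the spread between pools. The deposited intervals can be wider than counting error. In replicate 1 that of Etf1 ran from 58.5 to 80.9 TPM on 5884 counts, and that of Eif1ad from 52.8 to 56.4 TPM on 3541. The notes with the files name mm10 and annotation M4. Aligner, quantifier, use of strand and the level of the TPM intervals: not given in the sources used here.

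Per the file headers, the authors deposited an expected count per gene and transcript, which is estimated and can be fractional. TPM in maximum likelihood (printed here) and posterior mean form and FPKM were deposited too, all scaled over every row with the spike-ins. The bounds of TPM intervals were deposited without a fixed total and taken as a signal; the printed TPM lay outside them for 17 members in replicate 1 and 11 in replicate 2. In the transcript tables the authors' percent is a transcript's part of its gene.

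Identifiers without version were matched to GENCODE M21 (mm10, 1-based coordinates), for 42462 of 43346 genes. Detection was 1 TPM in both libraries. Ratios of pairs used TPM + 0.1 (a floor of 3 counts for a gene at 0), and a pair counted as different where both libraries had intervals apart in 1 direction. Expected counts were rounded and compared between libraries by exact binomial tests (summed count at least 20, prior count 1, TMM factors from edgeR 4.0.16 in R 4.3.3, adjusted p under 0.05 and at least 2-fold), since 1 library a side leaves no degrees of freedom for edgeR's quasi-likelihood test. The edgeR common coefficient of variation between libraries was 7.80% over 14043 genes. In data simulated for this comparison with Poisson noise only, 197 of 200 genes changed 3-fold among 17178 tested were recovered, with 0 false calls. Alternatives included DESeq2 1.42.0 size factors, other scalings, units and thresholds, and each replicate alone. Coding sequences were aligned with Biopython 1.88; the other steps ran in Python 3.11.15 (scipy 1.17.1, numpy 2.4.6, pandas 2.3.3; plots by matplotlib 3.10.9). Depth was 41760197 and 49256468 counts, and 3 counts of those on genes are 0.0772 and 0.0653 CPM.

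Any member or fixed pair could be named, in each role the 2 highest and the lowest in full, of other lists the 3 highest and the lowest, numbered pseudogenes of members, and leading transcripts; the genes with the largest ratios between libraries and the sequences of Eif4a3, Eif4ebp1 and Eif4ebp2 were chosen after their values were seen. The sequences of the eEF1A, eIF5A and eIF4A pairs and of the most abundant genes (Eif4g2) were named in the rule, itself set with earlier results known. Protein sequences were not used here.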

Additional observations from a re-analysis of the deposited data

Results flagged for a closer look

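Pseudogenes of the factor genes lie outside the comparisons, and 3 of them held counts above the floor of 3 in both libraries. Eif4a-ps4, a processed pseudogene on chromosome 1, had 410.5 and 626.8 expected counts (mean 518.7; 13.7 and 17.5 TPM), and Eif5al3-ps, on chromosome 5, had 14.62 and 12.56 (mean 13.59); both were chosen after their values were seen. Eif1-ps1, on chromosome 14, had 17.49 and 13.39 expected counts (mean 15.44). All these counts were fractional, and reads of a processed pseudogene and its parent gene can be shared, so whether they were transcribed was not tested.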

How the results depend on the processing

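The median factor gene had 84.0 TPM, 82.3 on posterior mean TPM, 54.2 in FPKM, 98.8 with TPM rescaled over genes without spike-ins and 101.2 over the 63 genes at 1 TPM or more; with 1 library it was 83.1 to 84.9. Detection gave 61 to 64 genes under every alternative run, and pairs apart 15 to 20. The 0 genes 2-fold apart between libraries stayed 0 with DESeq2 size factors, total counts, spike-in totals, no count filter and edgeR's exact test, and became 33 without a fold minimum. With TMM factors the median log2 ratio of all genes was 0.01, and with spike-in totals 0.07. The leading transcript was shared in 38 or 39 genes. The eIF3 ratio of 27.9 was 27.5 on posterior mean TPM and 26.6 to 29.3 with 1 library; with Eif3j1 and Eif3j2 summed, an alternative chosen after seeing the data, it was 6.25. All pairs kept their direction under each alternative run, and the largest shift on leaving out a library was 0.25 (log2, Eif4ebp1 against Eif4ebp3). Taking protein-coding transcripts alone was not among these alternatives, and it turns the order of Eef1b2 and Eef1d. The 1 TPM pseudocount was not run for Eif4e1b, which is at 0. No paired analysis was possible because there is 1 group. Depth limits Eef1a2, Eef1akmt3 and Eif4ebp3, with 3 to 65 counts each. An exact sign test over 2 pooled libraries cannot go below p = 0.5, and p-values between them measure sampling noise only.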
